A study of Rattus norvegicus with 26 samples.

Results

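*Tmprss2* and 6 related genes were followed through the differentiation of rat multipotent adult progenitor cells (rMAPCs) towards smooth muscle cells (SMCs). The genes were taken by name: the membrane serine proteases *Tmprss2*, *Tmprss4*, *Hpn*, *St14* and *Prss8*, and the inhibitors *Spint1* and *Spint2*. All 7 genes had 1 probe each among the 41012 gene probes of the array. A probe was tested when 1 group or more had it well above background, by the scanner's flag, on each of its arrays, and 6 genes passed. The *Spint2* probe was well above background on 3 of 26 arrays and was not tested. *Tmprss2* and *Prss8* had been chosen by the study for their change between d0 and d6 on these same arrays. Their changes over time and their difference from primary SMCs are therefore given as a description, with no p.

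Cl19 and 3c3 are independently isolated *Oct4*-expressing rMAPC lines from bone marrow of female Fischer rats, labelled 3 week for Cl19 and E18 for 3c3. Each line is 1 clone. Both were given TGFβ1 and PDGF-BB in medium without serum, and RNA was taken on d0, d2, d4 and d6, on 3 arrays per line and day. The d0 cells are the undifferentiated cells of the same line, and no culture without the 2 factors was analysed here. Primary SMC RNA was hybridized on 2 arrays. Its labels name commercial rat aortic RNA of one supplier and the methods name rat primary SMC RNA of another. Replicates are numbered in the labels, and where nothing names separate cultures the p-values measure the spread between these samples, which may be technical.

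Type II transmembrane serine proteases are anchored in the plasma membrane near their N-terminus and carry their trypsin-like protease domain outside the cell. TMPRSS2, TMPRSS4, hepsin (*Hpn*) and matriptase (*St14*) belong to this family, whereas prostasin (*Prss8*) is held in the membrane by a GPI anchor. Matriptase and prostasin can activate each other in epithelia. Their activity is held in check by the Kunitz-type inhibitors HAI-1 (*Spint1*) and HAI-2 (*Spint2*), which are membrane proteins too. Known substrates include the epithelial sodium channel, the growth factor HGF and the receptor PAR2. Hepsin is best known from hepatocytes, and TMPRSS2 from the epithelia of prostate, gut and airways.

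Each value is a log2 intensity after quantile normalization over the 26 arrays, and it is a relative level of 1 probe that cannot be set against that of another probe. Of the gene features 52.7% to 61.4% were well above background on the Cl19 arrays, 43.2% to 57.1% on the 3c3 arrays and 43.6% to 44.5% on the primary SMC arrays. The slide of 3c3 replicate 3 had a negative control signal of 28.3 to 44.5, against 10.9 to 13.98 elsewhere. Slides carried 1 replicate of 1 line each, with its 4 days, and each scan day covered 1 line or the primary SMC RNA, so that for levels line and scan day cannot be told apart. The array labelled Cl19 d2 replicate 1 went against its label. Over the tested probes it differed from the 3c3 arrays of d2 by a root mean square of 0.382 to 0.538 log2 units whereas its distance to its own group's remaining arrays was 0.876 and 0.917. Results of Cl19 on d2 are therefore also given without it. In RNA of a whole culture, fewer cells that express a gene and less RNA per cell cannot be told apart.

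Probe positions are those that the array files give for the rat assembly rn4. *Tmprss2* is measured on chromosome 11 (37577194 to 37577253, minus strand), *Prss8* on chromosome 1 (187210563 to 187210622, minus strand), *St14* on chromosome 8 (30918266 to 30918325, minus strand) and *Tmprss4* on the same chromosome (48124043 to 48124102, minus strand). *Hpn* is measured on chromosome 1 (86145931 to 86146154, minus strand), *Spint1* on chromosome 3 (105768972 to 105769031, plus strand) and *Spint2* on chromosome 1 (84393874 to 84393933, minus strand). The *Hpn* coordinates span 224 bases for a probe of 60 bases. Exon and UTR positions were not analysed here. The probes of 4 tested genes, each with a reading frame without a stop through all 60 bases, are shown. *St14* and *Spint1* rose by d6 in both lines, whereas *Hpn* and *Tmprss4* were called on d6 in neither line in the fit used throughout. Some alternatives given below, among them a fit paired by slide, called *Hpn* in 3c3. The comparison of these 4 genes rests on what these bases hybridize. The *Tmprss2* probe also has such a frame but is not printed, because it starts 2888 bases into its transcript and its place relative to the coding sequence was not settled.

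St14: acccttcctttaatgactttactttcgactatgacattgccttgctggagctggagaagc
Spint1: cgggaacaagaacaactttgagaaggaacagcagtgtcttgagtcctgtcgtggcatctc
Hpn: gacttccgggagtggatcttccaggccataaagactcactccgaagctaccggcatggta
Tmprss4: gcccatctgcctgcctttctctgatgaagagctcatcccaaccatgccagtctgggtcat

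Promoter sequence was taken from RefSeq (assembly GRCr8), whose table matched 4 of the 7 genes: *Tmprss2*, *Hpn*, *Spint1* and *Spint2*. The 250 bases before the annotated start are shown for *Tmprss2* and *Spint1*, which were both higher on d6 in both lines, and for *Spint2*, which was near background throughout. They lie at chr11:50443115-50443364 (minus strand), chr3:126685031-126685280 (plus strand) and chr1:93708092-93708341 (minus strand). Capitals mark the E-box CAGGTG on either strand, a motif bound by repressors of epithelial genes such as ZEB1 and SNAI1.

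Tmprss2: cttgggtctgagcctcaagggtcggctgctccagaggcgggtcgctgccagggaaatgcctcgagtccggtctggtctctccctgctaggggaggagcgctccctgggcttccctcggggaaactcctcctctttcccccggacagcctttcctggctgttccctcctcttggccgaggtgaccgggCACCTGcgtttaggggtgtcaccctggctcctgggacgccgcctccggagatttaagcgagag
Spint1: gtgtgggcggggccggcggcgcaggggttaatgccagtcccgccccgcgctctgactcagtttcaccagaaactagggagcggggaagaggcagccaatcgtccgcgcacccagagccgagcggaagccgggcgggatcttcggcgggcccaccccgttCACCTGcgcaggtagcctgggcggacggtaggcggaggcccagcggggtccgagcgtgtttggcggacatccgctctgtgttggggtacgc
Spint2: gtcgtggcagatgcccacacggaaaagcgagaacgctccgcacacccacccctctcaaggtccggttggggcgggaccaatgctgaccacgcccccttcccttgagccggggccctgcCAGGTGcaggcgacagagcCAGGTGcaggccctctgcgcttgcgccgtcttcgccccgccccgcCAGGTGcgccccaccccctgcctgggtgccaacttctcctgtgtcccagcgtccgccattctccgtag

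This E-box was present once before *Tmprss2* and once before *Spint1*, 63 and 91 bases before the start. It was present 3 times before *Spint2* and 3 times before *Hpn*. Of 33469 promoter windows of the same length, 15.9% held it. The GC box GGGCGG (either strand) was held by 30.5% of windows and was found 4 times before *Spint1*, 3 times before *Hpn*, 2 times before *Spint2* and not before *Tmprss2*. The TATA box TATAAA was in none of the 4 windows, against 12.9% of all. AACCGGTT, a site of grainyhead-like factors, was also in none of the 4, against 0.146% of all. None of these motifs overlapped another in the 4 windows. GC content was 65.6% before *Tmprss2* and before *Hpn*, 70.4% before *Spint1* and 69.6% before *Spint2*. A match describes letters and not a bound site, and the promoters printed for a gene that changed and for one near background both held the E-box.

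*Tmprss2*, the protease that primes several viral envelope proteins, had the largest change among the members. In Cl19 its log2 level on d0 was 4.51, 4.52 and 4.85 on the 3 arrays. On d2 it was 10.07, 12.46 and 12.99, on d4 13.80, 13.34 and 13.51, and on d6 13.32, 12.48 and 13.37. Every array of a later day lay above every d0 array, and the low value of d2 is the array that went against its label. In 3c3 the levels were 4.27, 3.92 and 4.31 on d0, then 10.54, 10.02 and 10.48 on d2. They were 11.72, 10.74 and 11.99 on d4 and 12.69, 13.37 and 12.94 on d6. The days of 3c3 did not overlap, in ascending order from d0 to d6, whereas in Cl19 the arrays of d4 and d6 overlapped. The mean log2 change by d6 was 8.43 (standard error 0.50, n = 3 against 3) in Cl19, or 345-fold, and 8.84 (0.50) in 3c3, or 457-fold. Within single slides it was 7.96 to 8.81 in Cl19 and 8.42 to 9.45 in 3c3. With normexp background correction it was 6.34 and 6.37.

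*Prss8*, which codes for prostasin, an activator of the epithelial sodium channel, was well above background on all rMAPC arrays. In Cl19 its level was 9.71, 9.78 and 9.93 on d0, 12.06, 12.42 and 12.87 on d2, 13.99, 14.51 and 14.31 on d4, and 14.82, 14.51 and 14.93 on d6. In 3c3 it was 10.09, 9.71 and 9.94 on d0, 12.25, 12.10 and 12.30 on d2, 12.57, 11.97 and 12.51 on d4, and 13.60, 13.11 and 13.27 on d6. The lines overlapped on d0 and d2 and did not overlap on d4 or d6, when all Cl19 arrays were the higher. On d2 the overlap came from the array that went against its label (12.06), and the other Cl19 arrays lay above all 3c3 arrays. By d6 the change reached 4.95 (standard error 0.22) in Cl19, or 30.8-fold, and 3.41 (0.22) in 3c3, or 10.6-fold. This difference between the lines is tested with the other differences between them.

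*St14* codes for matriptase, which cleaves prostasin and PAR2 at the cell surface. Its level in Cl19 was 9.61, 9.32 and 9.42 on d0, 11.69, 11.66 and 11.80 on d2, and 11.68, 11.72 and 11.97 on d6. In 3c3 it was 9.23, 9.69 and 9.84 on d0, 11.65, 11.67 and 11.80 on d2, and 11.99, 12.44 and 12.45 on d6. Every array of d2, d4 and d6 lay above every d0 array of its line. *St14* rose by d2 in both lines, by 2.26 in Cl19 (standard error 0.26, adjusted p = 3.7e-06; 2.28 without the array that went against its label) and by 2.12 in 3c3 (0.26, adjusted p = 9.2e-06). On d6 the rise was 2.34 in Cl19 (adjusted p = 4.3e-07), or 5.05-fold, and 2.70 in 3c3 (adjusted p = 1.2e-07), or 6.51-fold. These adjusted p-values are from limma over 24442 probes with Benjamini-Hochberg adjustment, as are all those that follow.

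*Hpn*, the gene of hepsin, was higher in Cl19 than in 3c3 on d0. Its Cl19 level was 8.23, 8.11 and 8.31 on d0 and 8.22, 8.40 and 8.07 on d6, and the arrays of all days overlapped those of d0. In 3c3 it was 6.30, 6.82 and 6.87 on d0, 8.59, 8.33 and 8.64 on d2, 7.88, 7.37 and 7.93 on d4, and 7.46, 6.63 and 7.61 on d6. The d2 arrays of 3c3 were the highest of that line and did not overlap any other day, and the d6 arrays overlapped those of d0. *Hpn* rose in 3c3 on d2 by 1.86 (standard error 0.24, adjusted p = 1.6e-05), or 3.62-fold. On d6 its change in 3c3 was 0.57 (0.24, adjusted p = 0.058), and 3 of the alternatives with all arrays put it past the threshold. These were the fit paired by slide, as replicate block (adjusted p = 0.029), scaling by the 75th percentile (0.61, adjusted p = 0.045) and the authors' log2 table (0.92, adjusted p = 0.0043). Without 3c3 replicate 2 the change was 0.95 (adjusted p = 0.0053). In Cl19 the change was 0.16 on d2 (0.24, adjusted p = 0.73; 0.090 without the array that went against its label) and 0.01 on d6 (0.24, adjusted p = 0.97).

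*Tmprss4*, a protease described in pancreatic and other carcinomas, stayed within a narrow range. Over the 24 rMAPC arrays its level lay between 5.87 and 6.76, and the days overlapped in both lines. Between d0 and d6 the level moved by -0.22 in Cl19 (standard error 0.16, adjusted p = 0.27) and -0.10 in 3c3 (0.16, adjusted p = 0.66). With the authors' log2 table both had the opposite sign (0.18 and 0.26), also short of the threshold. *Tmprss4* was well above background on all 26 arrays.

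*Spint1* codes for HAI-1, the cognate inhibitor of matriptase and prostasin. In Cl19 its level was 10.30, 10.104 and 10.33 on d0, 9.32, 10.95 and 11.23 on d2, 11.69, 11.35 and 12.16 on d4, and 11.99, 11.87 and 11.75 on d6. In 3c3 it was 8.23, 8.40 and 8.69 on d0, 9.41, 9.05 and 9.55 on d2, 9.13, 8.16 and 9.48 on d4, and 10.68, 11.10 and 11.08 on d6. The arrays of d6 were all above those of d0 in both lines. *Spint1* rose from d0 to d6 by 1.62 in Cl19 (standard error 0.38, adjusted p = 0.0012), or 3.08-fold, and by 2.51 in 3c3 (0.38, adjusted p = 2.1e-05), or 5.72-fold. On d2 the change in Cl19 was 0.25 (0.38, adjusted p = 0.72). Without the array labelled Cl19 d2 replicate 1, which was the only d2 array below d0, it was 0.85 (adjusted p = 0.049). On d2 the change in 3c3 was 0.90 (0.38, adjusted p = 0.11), with all 3 arrays above those of d0. It passed the threshold without the array labelled Cl19 d2 replicate 1 (adjusted p = 0.024), without all arrays of Cl19 replicate 1 (adjusted p = 0.043) and in the authors' log2 table (1.24, adjusted p = 0.026).

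*Spint2*, the gene of HAI-2, was well above background on the arrays of Cl19 replicate 3 for d0, d2 and d6, at 2.68, 2.11 and 2.18. On the other 23 arrays it was not well above background. No change is given for it.

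**Figure D1:**
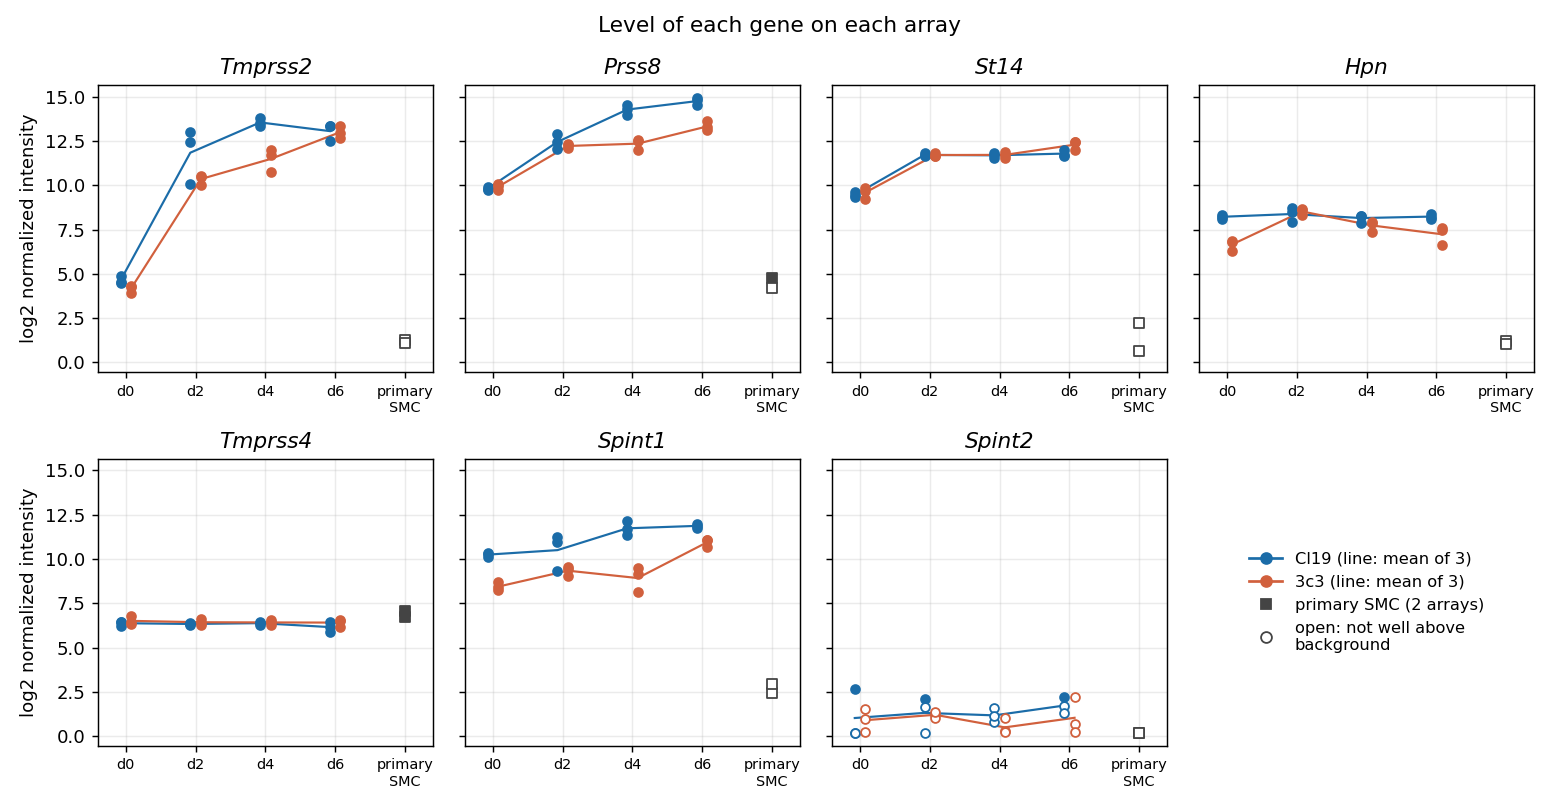
Log2 normalized intensity (y axis) of each gene's probe on each of 26 arrays, by day of differentiation and for primary SMC RNA (x axis). Points are arrays of Cl19 (blue) and 3c3 (orange), squares are the 2 primary SMC arrays, lines join the means of 3 arrays, and open symbols were not well above background. *Tmprss2* and *Prss8* climb from d0 to d6 in both lines, *St14* has its step by d2, *Tmprss4* stays between 5.87 and 6.76 in rMAPCs, and *Tmprss2*, *Hpn*, *St14* and *Spint1* are open in primary SMCs.

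The genes differed in when their change came. On d2 *St14* had reached 96.8% of its d6 log2 change in Cl19 and 78.4% in 3c3, and *Tmprss2* 85.5% and 70.0%. *Prss8* had reached 53.4% and 67.5%. *Spint1* had reached 15.6% in Cl19 and 35.8% in 3c3. Without the array that went against its label, the Cl19 values on d2 were 97.5% for *St14*, 96.1% for *Tmprss2*, 57.4% for *Prss8* and 52.1% for *Spint1*. On d4 in Cl19 all 4 genes were at 90.3% or more of their d6 change, whereas in 3c3 they were at 82.8% for *Tmprss2*, 78.7% for *St14*, 71.4% for *Prss8* and 19.3% for *Spint1*. These shares are a description, and the order of the genes was not tested.

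**Figure D2:**
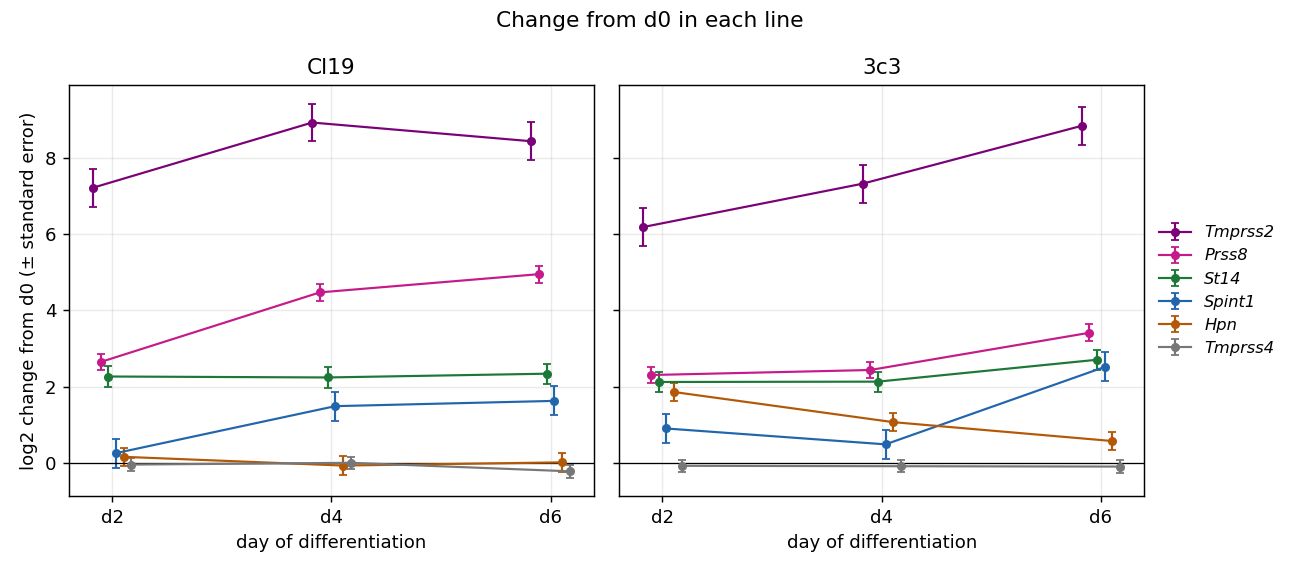
Log2 change from d0 (y axis) on d2, d4 and d6 (x axis) for the 6 tested genes, with Cl19 on the left and 3c3 on the right. Points are differences of means of 3 arrays and bars are standard errors from limma. In 3c3 *Hpn* is highest on d2 (1.86) and lower on d6 (0.57), and *Spint1* has most of its change (2.51) between d4 and d6.

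Of the 4 members tested on d6, 2 were called in Cl19 (*St14* and *Spint1*, both higher) and the same 2 in 3c3. Of all tested probes 52.2% were called in Cl19 on d6, 22.0% higher and 30.3% lower, and 48.2% in 3c3, 19.7% higher and 28.6% lower. A share of 2 in 4 is near that background and is no result about the members as a group. On d2, 1 of the 4 was called in Cl19 (*St14*; with *Spint1*, 2 without the array that went against its label), against 22.6% of all probes, and 2 in 3c3 (*St14* and *Hpn*), against 19.1%. The median d6 change over all tested probes was -0.20 in Cl19 and -0.21 in 3c3 after quantile normalization and 0.10 and 0.09 in the authors' log2 table.

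The lines differed in 1 member's d6 change. *Prss8* changed more in Cl19 than in 3c3, by 1.54 log2 units (standard error 0.31, adjusted p = 0.0015), and the change within a slide was larger on every Cl19 slide (4.73 to 5.11) than on every 3c3 slide (3.33 to 3.51). In this comparison 17.4% of all tested probes were called. The difference was -0.41 for *Tmprss2* (0.70, adjusted p = 0.81), -0.37 for *St14* (0.37, adjusted p = 0.62) and -0.89 for *Spint1* (0.54, adjusted p = 0.32). When the lines were fitted without the primary SMC, d2 and d4 arrays, the difference of *Spint1* was past the threshold too (adjusted p = 0.026). For *Hpn* and *Tmprss4* it was -0.56 (0.34, adjusted p = 0.33) and -0.12 (0.23, adjusted p = 0.83).

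On d2 the change of *Hpn* was smaller in Cl19 than in 3c3, by 1.70 log2 units as fitted (-1.70, standard error 0.34, adjusted p = 0.034), a comparison added after its values were seen. Only 0.323% of all tested probes were called there, and no other member was. The call was lost when Cl19 replicate 2 (adjusted p = 0.19) or 3 (adjusted p = 0.18) or 3c3 replicate 1 (adjusted p = 0.27) or 3 (adjusted p = 0.17) was left out. Without the array labelled Cl19 d2 replicate 1 the call of *Hpn* remained and *Tmprss2* was called as well, with a larger d2 change in Cl19 by 1.92 (adjusted p = 0.018). On d0 *Hpn* was higher in Cl19 than in 3c3 by 1.55 (standard error 0.24, adjusted p = 8.3e-04) and *Spint1* by 1.81 (0.38, adjusted p = 0.0092), against 3.07% of all probes called. All Cl19 arrays of d0 lay above all 3c3 arrays for both genes. For the other 4 tested members the d0 difference lay between -0.14 and 0.46, with an adjusted p of 1. *Tmprss2* arrays of d0 did not overlap between the lines either. Without 3c3 replicate 1, *Spint1* had an adjusted p of 0.084 on d0 with a difference of 1.70.

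**Figure D3:**
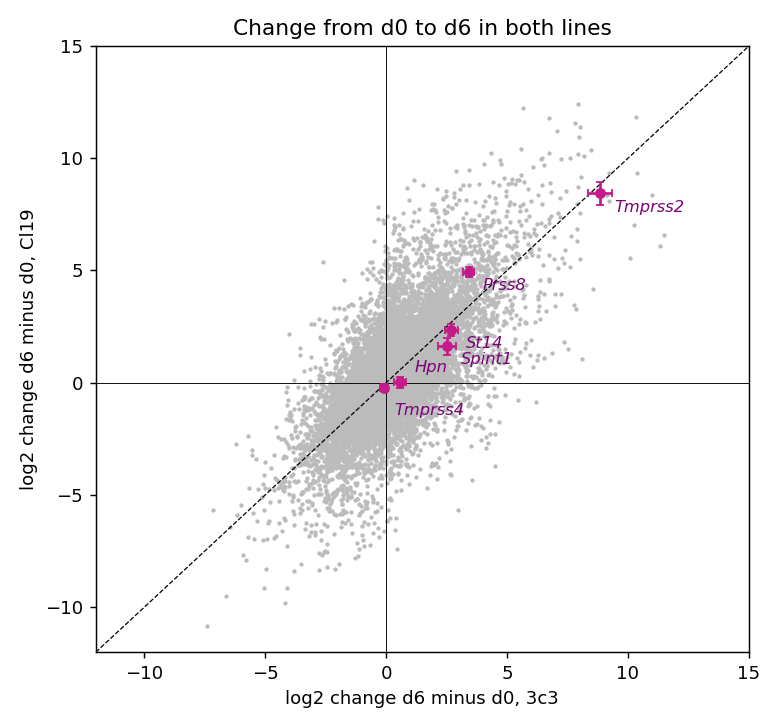
Log2 change from d0 to d6 in 3c3 (x axis) and in Cl19 (y axis) for the tested probes (grey) and the 6 tested members (pink, bars are standard errors). The dashed line marks equal change. *Prss8* lies above it (4.95 in Cl19, 3.41 in 3c3), *Tmprss2* lies near it at the upper end, and *Tmprss4* lies near 0 on both axes.

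Primary SMCs lacked the signal of most members. *Tmprss2* was at 1.28 and 1.097 on the 2 arrays, *Hpn* at 1.18 and 1.02, *St14* at 0.61 and 2.21 and *Spint1* at 2.42 and 2.92, none of them well above background. *Prss8* was at 4.79 and 4.20 and was well above background on the first array only. All these values lay below every d6 array of both lines. The d6 levels were therefore set against a floor, the dimmest signal that still counted as above background on an array, or against the probe's own value where that was higher. On d6 *Tmprss2* exceeded primary SMCs at least 623-fold in Cl19 and at least 599.8-fold in 3c3 (9.28 and 9.23 log2 units). For *Prss8*, measured on 1 of 2 primary SMC arrays, the fitted fold was 1224 against Cl19 and 455.5 against 3c3, which is no bound. *St14* was at least 259-fold higher in Cl19 (adjusted p = 1.2e-16) and 366-fold higher in 3c3 (adjusted p = 5.3e-17). *Spint1* was at least 274-fold higher in Cl19 (adjusted p = 2.5e-13) and 145-fold higher in 3c3 (adjusted p = 1.2e-12). *Hpn* was at least 22.0-fold higher in Cl19 (adjusted p = 1.3e-14) and 11.0-fold higher in 3c3 (adjusted p = 1.2e-13). Here and below, an adjusted p beside a bound belongs to the fitted difference without a floor and does not test the bound. A gene with a bound can have passed the filter only through the groups where it was bright. For *St14*, *Spint1* and *Hpn* these were rMAPC groups alone. The bounds hold on the quantile-normalized scale. With normexp background correction the primary SMC minus Cl19 d6 differences were smaller, at -6.73 for *Tmprss2*, -8.12 for *Prss8*, -5.55 for *St14*, -5.69 for *Spint1* and -2.30 for *Hpn*. Those against 3c3 were -6.64, -6.68, -6.00, -4.80 and -1.58. Against d0 the bound of *Tmprss2* was lower, at 1.81-fold in Cl19 and 1.31-fold in 3c3.

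*Tmprss4* had no settled direction between primary SMCs and d6. Its primary SMC levels were 7.06 and 6.75 after quantile normalization, 0.75 above Cl19 on d6 (standard error 0.18, adjusted p = 0.0011) and 0.50 above 3c3 (0.18, adjusted p = 0.020). In the authors' log2 table, without normalization between arrays, primary SMCs were the lower, with differences of -1.65 and -1.79 (adjusted p = 7.7e-06 and 2.8e-06). Against 3c3 the call was also lost without 3c3 replicate 1 (0.38, adjusted p = 0.086) or primary SMC replicate 1 (0.34, adjusted p = 0.20). All 4 tested members were called in each comparison with primary SMCs, where 71.4% of all probes were called against Cl19 and 71.5% against 3c3. Of these members, *Hpn*, *St14* and *Spint1* were tested because of their rMAPC levels alone, so their calls add no separate support.

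The 5 genes whose level was most like that of *Tmprss2* over the 26 arrays, among 11702 genes, were *Foxa3*, *Car2*, *Ttr*, *Proc* and *Rgs16*. Pearson's r was 0.97 for *Foxa3*, *Car2* and *Ttr* and 0.96 for *Proc* and *Rgs16*, as a description over arrays that share slides, lines and days. *Foxa3*, a forkhead factor of endoderm and liver, was not well above background on d0 and reached at least 55.8 times its d0 bound on d6 in Cl19 and 27.1 times in 3c3. *Ttr*, the transthyretin gene expressed by liver and visceral endoderm, had a mean of 3.43 in Cl19 on d0 and 10.26 on d6, and of 4.07 and 11.96 in 3c3. *Proc*, the gene of the liver-made anticoagulant protease protein C, went from 4.75 to 10.08 in Cl19 and from 4.02 to 11.39 in 3c3. *Car2*, a carbonic anhydrase, had the mean levels 4.54 and 13.19 in Cl19 and 5.77 and 11.66 in 3c3. *Rgs16*, a regulator of G protein signalling, was also not well above background on d0 and was on d6 higher by at least 8.45-fold in Cl19 and 6.48-fold in 3c3. None of the 5 was well above background in primary SMCs. Among the members, *Prss8* was nearest to *Tmprss2* (r = 0.93, rank 52), then *St14* (0.81, rank 460), *Spint1* (0.76, rank 701) and *Hpn* (0.64, rank 1441), and *Tmprss4* had r = -0.53. All these r include the primary SMC arrays, where *Tmprss2*, *Hpn*, *St14* and *Spint1* were not well above background. Without those arrays r was not calculated.

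Most other type II transmembrane serine proteases were near background. Of 15 listed genes 12 were on the array and 3 were tested. *Tmprss9*, a protease with several protease domains, rose in both lines, by 1.16 in Cl19 (standard error 0.26, adjusted p = 9.5e-04) and by 2.15 in 3c3 (0.26, adjusted p = 2.0e-06). *Corin*, the protease that processes the atrial natriuretic peptide, rose in 3c3 to at least 3.23-fold its d0 level (adjusted p = 6.5e-04), where 2 of 3 arrays of d6 were well above background. In Cl19 its change was -0.35 (adjusted p = 0.61), and the lines differed (adjusted p = 0.011). *Tmprss3* was never well above background in rMAPCs on d0 or d6 and was tested only because both primary SMC arrays were, at a mean of 5.08. Thus 1 of 3 was called higher in Cl19 and 2 of 3 in 3c3, against 22.0% and 19.7% of all tested probes. None was called lower, against 30.3% and 28.6%. The median change was -0.32 in Cl19, which is the value of the dim *Tmprss3* probe, and 2.15 in 3c3. With 3 genes tested, these counts and medians are no result about the family.

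Among GPI-anchored and other serine proteases 6 of 10 listed genes were tested, 4 of them also on the list the study selected on these arrays, whose values carry no p here and are counted in no call. The other 2 were *Furin* and *Hgfac*. In Cl19 1 was called higher and 1 lower, against 22.0% and 30.3% of all tested probes. In 3c3 both were called higher, against 19.7%. Counts over 2 genes are no result about the list. *Plau*, the urokinase gene, was not well above background on d0 and on d6 higher by at least 124-fold in Cl19 and 179-fold in 3c3. *Plat*, the tissue plasminogen activator gene, changed by 6.97 log2 units in Cl19 and by 6.59 in 3c3, where 2 of 3 d0 arrays were well above background. *Prss23* was at least 390-fold and 84.0-fold higher and *Prss12*, the neurotrypsin gene, at least 29.9-fold and 5.42-fold. *Furin*, a proprotein convertase, rose by 0.79 (standard error 0.17, adjusted p = 6.9e-04) and 0.85 (0.17, adjusted p = 4.5e-04). *Hgfac*, which activates HGF, fell by 0.89 in Cl19 (0.32, adjusted p = 0.023) and rose by 1.42 in 3c3 (0.32, adjusted p = 0.0010), and the lines differed in its change (adjusted p = 0.0010).

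Of 9 other genes of inhibitor families 5 were tested, and 1 of them is on the study's list (*Serpinb5*). The other 4 had a median change of 2.17 in Cl19, where 3 passed the test upwards and 1 downwards, and of 0.030 in 3c3, where 1 passed in each direction. Of all tested probes 22.0% passed upwards and 30.3% downwards in Cl19, and 19.7% and 28.6% in 3c3. *Serpine2*, which inhibits thrombin, urokinase and prostasin, rose by 2.48 in Cl19 (0.46, adjusted p = 1.3e-04) and fell by 2.62 in 3c3 (0.46, adjusted p = 1.0e-04). The lines differed in this change by 5.10 (0.65, adjusted p = 1.6e-05). *Serpinb5*, the maspin gene, had changes of -2.88 and -3.57. *Serpina1*, the antitrypsin gene, was higher in Cl19 by at least 3.11-fold (adjusted p = 0.033), and *Slpi* was lower there by at least 2.86-fold (adjusted p = 0.0026). Neither was called in 3c3 (adjusted p = 0.46 and 0.36), and their differences between the lines were not past the threshold (adjusted p = 0.53 and 0.22). Among the d0, d6 and primary SMC groups, *Serpina1* was well above background on every array only in Cl19 on d6. For *Slpi* this held only in Cl19 on d0. Their adjusted p-values and their calls counted above set bright arrays against mostly dim ones and are no separate support.

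Substrates of the proteases and their receptors were mostly higher on d6. Of 13 listed genes 11 were tested, 2 of them on the study's list (*Scnn1a* and *Scnn1g*). Of the other 9, 8 were called higher in each line and none lower, against 22.0% of all tested probes called higher in Cl19 and 19.7% in 3c3. The calls of *Mst1r* are among these and are no separate support, for the reason given below. The median change of these 9 was 2.87 in Cl19 and 2.16 in 3c3. All 3 subunits of the epithelial sodium channel, which prostasin and matriptase activate, were higher on d6 than on d0. *Scnn1a* changed by 4.70 in Cl19 and 4.12 in 3c3. *Scnn1b* rose by 2.54 in Cl19 (standard error 0.56, adjusted p = 7.4e-04) and to at least 16.7-fold in 3c3 (adjusted p = 4.8e-06). *Scnn1g* was at least 1.56-fold and 3.68-fold higher. *F2rl1*, the gene of PAR2, rose by 1.94 in Cl19 (0.22, adjusted p = 4.7e-07) and by 1.30 in 3c3 (0.22, adjusted p = 7.7e-05).

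*Epcam*, a matriptase substrate at epithelial contacts, rose by 2.87 in Cl19 (standard error 0.21, adjusted p = 1.4e-09) and 2.16 in 3c3 (0.21, adjusted p = 9.7e-08). *Cdcp1*, a surface protein that matriptase can cleave, rose by 3.26 (0.51, adjusted p = 2.3e-05) and 3.57 (0.51, adjusted p = 1.2e-05). *Plaur*, the urokinase receptor gene, rose by 1.53 (0.35, adjusted p = 0.0010) and 2.84 (0.35, adjusted p = 2.1e-06). *Egfr* rose to at least 6.80-fold in Cl19 (adjusted p = 4.0e-06) and 3.18-fold in 3c3 (adjusted p = 2.9e-04). *Mst1r*, the receptor of the HGF-like protein, was higher by at least 6.70-fold (adjusted p = 3.1e-08) and 1.498-fold (adjusted p = 1.9e-05). Of the d0, d6 and primary SMC groups, only Cl19 on d6 had *Mst1r* well above background on every array. In 3c3 2 of 3 d6 arrays were. Its adjusted p-values thus set bright arrays against values below background and are no separate support. *Mst1*, the gene of the HGF-like protein itself, rose in 3c3 to at least 2.31-fold (adjusted p = 0.0032) with a change of -0.55 in Cl19 (adjusted p = 0.15), and the lines differed (adjusted p = 0.0077). *Hgf* and its receptor gene *Met* were never well above background on d0 and d6.

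Several transcription factors of epithelial and hepatic programmes changed to a different extent in the lines. Of 14 listed genes 9 were tested, none on the study's list, with 4 called higher in Cl19 and 2 in 3c3, none lower, and a median change of 0.66 and 0.36. Of all tested probes 22.0% were called higher in Cl19 and 19.7% in 3c3, and 2 of 9 is near the latter share. *Grhl2*, a grainyhead-like factor that maintains epithelial junctions, rose in Cl19 to at least 124-fold (adjusted p = 3.2e-05), with 2 of 3 d0 arrays well above background, and had a change of 2.14 in 3c3 (standard error 1.16, adjusted p = 0.14). *Grhl3* rose in Cl19 by 2.81 (0.48, adjusted p = 6.5e-05), against -0.92 in 3c3 (0.48, adjusted p = 0.13). *Ovol1* rose in Cl19 to at least 3.05-fold (adjusted p = 5.7e-06) and was never well above background in 3c3 on those days. The lines differed for all 3 (adjusted p = 0.038, 6.4e-04 and 0.0011), against 17.4% of all tested probes. Of the d0, d6 and primary SMC groups, only Cl19 on d6 had *Ovol1* well above background on every array. Its adjusted p-values thus set that group against values below background and are no separate support. *Foxa2* rose a little in both lines, by 0.66 (0.17, adjusted p = 0.0031) and 0.50 (0.17, adjusted p = 0.022), from a mean of 13.27 and 13.39. *Foxa1*, a known regulator of *Tmprss2* in the prostate, was never well above background on d0 and d6. Among all the related genes no called change turned its sign with scaling by the 75th percentile or in the authors' log2 table.

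**Figure D4:**
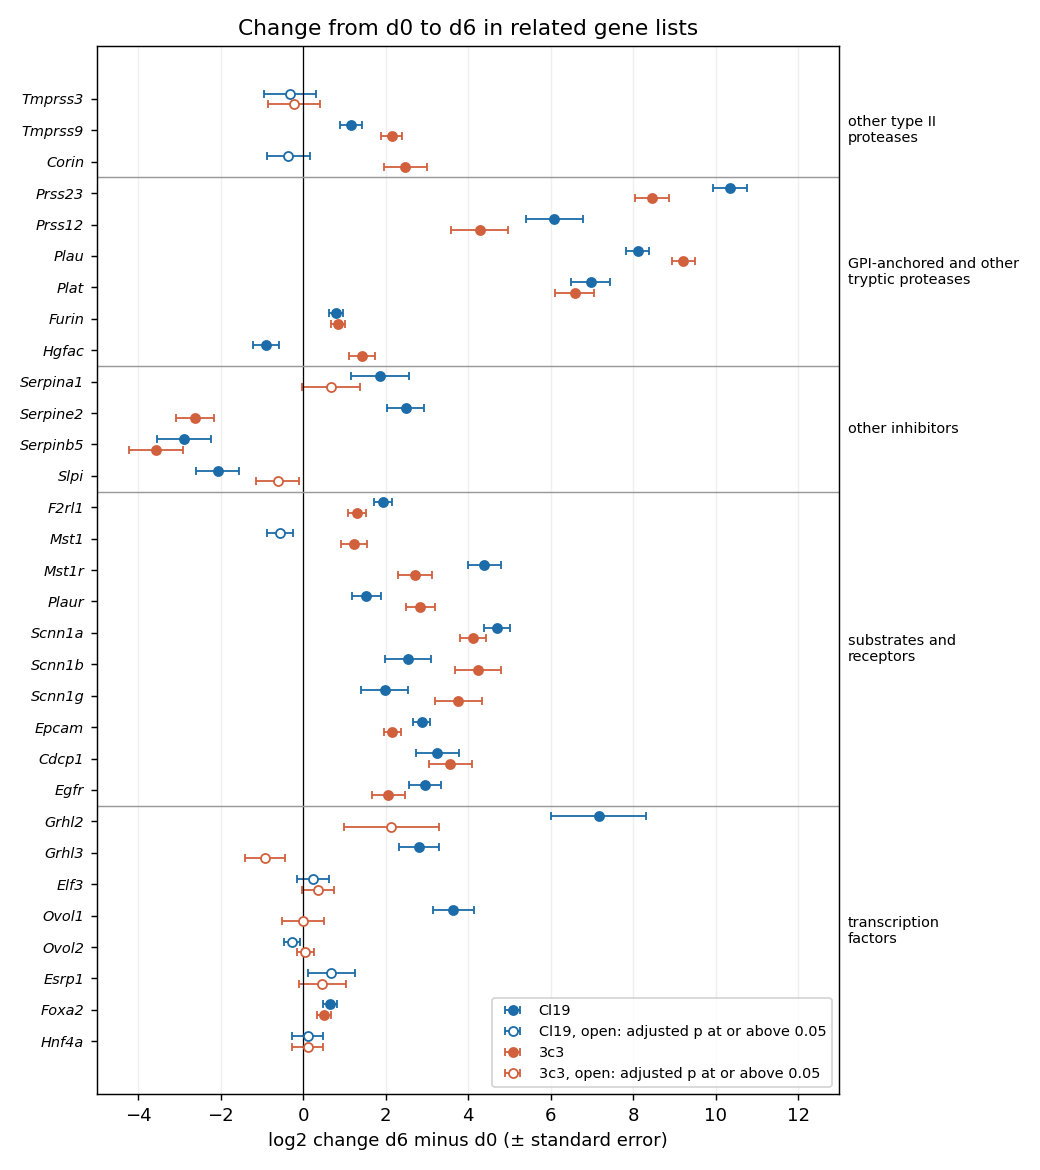
Log2 change from d0 to d6 (x axis) with standard error for tested genes of 5 related lists (y axis) in Cl19 (blue) and 3c3 (orange). Open points have an adjusted p at or above 0.05, and genes on the study's list are filled and carry no p. *Serpine2* and *Hgfac* lie on opposite sides of 0 in the lines, *Grhl2*, *Grhl3* and *Ovol1* are filled in Cl19 only, and the 3 sodium channel subunits lie to the right of 0 in both.

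Epithelial marker genes were higher on d6, as were *St14* and *Spint1*. Of all tested probes 22.0% were called higher and 30.3% lower in Cl19, and 19.7% and 28.6% in 3c3. Of 11 listed epithelial genes 5 are on the study's list, and the other 6 were all called higher in both lines, with a median change of 2.91 in Cl19 and 2.18 in 3c3. Their summed normalized intensity, a level of the whole list that its brightest probe can carry, was 135655 to 144882 on d0 and 370208 to 398840 on d6 in Cl19, 139068 to 149470 and 270629 to 290538 in 3c3, and 1747 to 1831 in primary SMCs. *Krt18* made up 89.8% to 92.5% of it on d0. The sum of the other 10 was 13054 to 14690 and 188995 to 213600 in Cl19 and 10452 to 13281 and 100967 to 116758 in 3c3. In primary SMCs 8 of the 11, with *Cdh1* and *Epcam* among them, were not well above background on either array. Smooth muscle markers were higher on d6 too, with 3 of the 5 that are not on the study's list called higher in each line. In 3c3 *Myocd* was called lower, but it was well above background on 1 of 3 d0 arrays and on no d6 array. No bound on a fall could be given for it. The summed intensity of the smooth muscle markers was 1838 to 2227 on d0 and 61146 to 73091 on d6 in Cl19, 1436 to 1685 and 28940 to 45972 in 3c3, and 94113 to 96376 in primary SMCs, and on d6 *Tagln* made up 79.9% to 88.5% of it. Both primary SMC arrays had all 7 well above background, whereas *Mylk* and *Myocd* were on 1 of 3 arrays of Cl19 and on no array of 3c3 on d6. Of 4 tested markers of undifferentiated rMAPCs that are not on the study's list, 4 were called lower in Cl19 and 3 in 3c3. Of all tested probes 30.3% and 28.6% were called lower. The summed intensity of the whole list was 26899 to 30769 in Cl19 on d0, against 2516 to 5045 on d6, and 29916 to 34122 in 3c3, against 13701 to 15499. Leukocyte markers had 1 of 3 called in Cl19 (*Cd14*, lower) and none in 3c3, and on primary SMC arrays 3 of their 4 genes were well above background. Of 4 endothelial markers that are not on the study's list 1 was called lower in Cl19 (*Tek*), none in 3c3 and none higher, and fibroblast markers 2 higher and 1 lower in Cl19 and 1 of each in 3c3, with all 4 well above background in primary SMCs. With 3 or 4 genes per list, the leukocyte, endothelial and fibroblast counts are no result about those cell types. The part of any cell type in the changes of the members was not tested.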

How the data were processed

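RNA of Cl19 and 3c3 on d0, d2, d4 and d6 (3 arrays each) and of primary SMCs (2 arrays) was grouped by label. The authors labelled it with Cy3, hybridized it to Agilent rat arrays and deposited the scanner intensity from Agilent Feature Extraction 10.1.1.1 (processed signal, already background-corrected), the mean and background intensity and quality flags (score values of 0 or 1), and a log2 table that equals the log2 of that intensity within 5.2e-14, with no normalization between arrays. Here log2 intensities of 43379 gene features were quantile-normalized as in the methods, outlier features were left out and features of a probe averaged. Equal distributions remove changes shared by most genes. The 24442 probes that the scanner flagged well above background throughout 1 or more groups were tested in 1 limma 3.58.1 fit (R 4.3.3) over 9 groups, with Benjamini-Hochberg adjustment at 0.05. Tables and figures were made with Python 3.11.15. The fit was checked on simulated data.

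The genes, lists and tests were chosen with earlier results of these data known. Named were the members, the related genes called on d6 and the 5 genes most like *Tmprss2*. One probe per gene, the brightest, was used. Replicate numbers pair the days of a line because, per the file headers, they shared a slide; deviations correlated by over 0.1 in 18 of 18 pairs in 3c3 and 16 of 18 in Cl19 (lowest 0.061). The number of arrays limits the precision, and no gene feature was saturated. Alternatives were other scalings, background correction, filters, floors, blocks and left-out arrays. Some genes of the related lists count in the lists' totals and are not reported here by name.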

Additional observations from a re-analysis of the deposited data

Results flagged for a closer look

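The d6 change of *Prss8* differed between the lines by limma's test of the difference, by 1.54 log2 units (Cl19 minus 3c3), with 4.95 in Cl19 and 3.41 in 3c3. The d2 change of *Hpn* had a difference of -1.70 (0.16 in Cl19 and 1.86 in 3c3), from a d0 level that was higher in Cl19 by 1.55. That comparison was added after its values were seen, and its call was lost in 4 of the fits that left out a replicate (adjusted p = 0.17 to 0.27 by limma). The line and the scan day cannot be told apart for that d0 level. Groups of 3 arrays are too small for a test of single arrays.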

How the results depend on the processing

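Members called kept within 1.5 times their number in 149 of 157 recomputed counts. A move from 2 to 3 members counts as kept here. Some recomputations could not change the size of an effect. Examples are arrays of the other line left out for a change within a line, and the mean over a gene's probes, as each member has 1. The number kept is therefore no measure of stability. The fit of the compared groups alone called 2 members in place of 1 for the d6 difference between the lines. With single replicates left out the number called was 1 to 2 for d2 in Cl19, 2 to 3 for d2 and d6 in 3c3, 2 for d6 in Cl19, 1 for the d6 difference, 0 to 2 for the d2 difference, 1 to 2 for the lines on d0, 4 against Cl19 d6 and 3 to 4 against 3c3 d6 in primary SMCs. The call of *Hpn* in the d2 difference was lost without Cl19 replicate 2 (adjusted p = 0.19) or 3 (0.18) and without 3c3 replicate 1 (0.27) or 3 (0.17).

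The fit paired by slide, as replicate block, called 3 members in 3c3 on d6 in place of 2, with *Hpn* added, and changed no other call; the causes were not tested. Small changes turned their sign. So did the primary SMC differences of *Tmprss4*, which were called in both directions (0.75 against Cl19 d6 and 0.50 against 3c3 d6 in the fit used throughout). *Tmprss4* was at 0.18 (d6) and 0.21 (d2) in Cl19 and 0.26 and 0.24 in 3c3 with the authors' log2 table, where its d2 difference was -0.035 and its primary SMC differences -1.65 and -1.79. *Hpn* on d6 in Cl19 was at -0.0318 with scaling by the 75th percentile and -0.0323 with normexp. With replicates left out, ranges crossing 0 were -0.13 to 0.14 for *Hpn* on d6 in Cl19, -0.10 to 0.020 for *Tmprss4* and -0.069 to 0.87 for *Spint1* on d2 in Cl19 (*Spint1* -0.043 without replicate 2), and for *Tmprss4* -0.23 to 0.054 in the d6 difference and -0.027 to 0.098 in the d2 difference (-0.0083 without the array that went against its label). Against primary SMCs the differences of *Tmprss2*, *Hpn*, *St14* and *Spint1*, dim there, are to be read as bounds only. The fitted fold of *Prss8* is no bound, and no change is given for *Spint2*.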
